A study of Mus musculus with 8 samples.

Results

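Semaphorins, plexins, neuropilins, ephrins, Eph receptors, Slits, Robos, netrins and Unc5 receptors form the main families of guidance proteins, which tell migrating cells and growing axons where to go and keep neighbouring cell populations apart. They were followed as 1 set in total RNA of mouse embryonic stem cells. The members are all gene symbols of the deposited count table that bear the family names, which gave 68 genes of 21812. They comprise 20 semaphorins, 9 plexins, 2 neuropilins, 8 ephrins, 14 Eph receptors, 3 Slits, 4 Robos, 4 netrins and 4 Unc5 receptors. Of the 68, 65 passed the filter on low counts. The other 3, Epha6, Epha10 and Plxnb3, had summed counts of 0 to 12 in any group and were not tested.

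All cells were kept in culture conditions meant to drive them towards primitive endoderm, an extraembryonic tissue of the blastocyst. The enzyme subunit Mettl3 and the scaffold protein Virma belong to the m6A (N6-methyladenosine) methyltransferase. The 8 libraries form 4 groups of 2, a WT and a cKO group in a Mettl3 line (Mettl3 WT and Mettl3 cKO) and in a Virma line (Virma WT and Virma cKO), as labelled. The 4 groups share the medium, and the labels name no strain, clone, floxed allele, Cre driver or separate cultures, so the spread behind the p-values is that of libraries and may be technical. Values are CPM, read counts scaled to library size, and differences are log2 fold changes ± SE from edgeR's quasi-likelihood test, in which a gene is called at a Benjamini-Hochberg adjusted p under 0.05 over all 14229 genes tested.

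Total counts were 15568628 to 17306227 per library. Counts of the Virma cKO pair agreed within sampling noise over all genes (chi-square per degree of freedom 0.914, against 1.31 to 2.84 in the other pairs). This pair, whose difference was less than that noise, was counted as 1 sample, so the group has no SD. Mettl3 RNA was not called lower in the libraries labelled Mettl3 cKO (34.6 ± 1.05 against 35.5 ± 0.371 CPM, SD, n = 2). Virma RNA was called lower in Virma cKO, with a log2 fold change of −0.33 ± 0.06. This fall was not particular to Virma, as Mettl3 RNA stood at 45.8 and 44.3 CPM in Virma WT and 34.1 and 33.6 CPM in Virma cKO. Directions are therefore between libraries labelled cKO and WT. Primitive endoderm markers were present in every library, with sums of 18006 and 18037 CPM (Mettl3 WT), 11597 and 11634 (Mettl3 cKO), 14020 and 14068 (Virma WT) and 3003 and 3008 (Virma cKO). Fibroblast markers summed to 188 and 205 CPM, 361 and 365, 479 and 478, and 1103 and 1093 in the same order. In bulk RNA, fewer cells of a type and less RNA per cell cannot be told apart.

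As background, semaphorins are ligands for plexins. Class 3 semaphorins are secreted and most of them need a neuropilin as co-receptor, classes 4 to 6 span the membrane, and Sema7a is anchored to it by a lipid. Ephrins and Eph receptor kinases are both held on cell surfaces and signal at cell contacts, A-type ephrins through a lipid anchor and B-type ephrins with a tail inside the cell. Slits are secreted ligands of Robo receptors such as Robo1. Netrins bind Dcc, neogenin and Unc5 receptors. In early embryos Eph and ephrin signalling is known for cell sorting and boundary formation.

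Promoter sequences are shown for the 4 members that passed the test in the same direction and by at least 2-fold in both lines, at an average log2 CPM of at least 0: Sema3a, Sema3c and Slit3, which rose, and Sema6d, which fell. Each window runs from 250 bases before to 50 bases after the RefSeq transcription start on GRCm38.p6, 5′ to 3′ on the strand of the gene. The authors' build was mm39, so these coordinates are those of the RefSeq table. Capitals mark every match, on either strand, to 1 of 4 motifs, which were GGGCGG as the GC box core, AGATAA as the first form of the GATA factor motif, TGATAA as its other form, and TATAAA as the TATA box.
Sema3a, chr5:13396534-13396833, + strand: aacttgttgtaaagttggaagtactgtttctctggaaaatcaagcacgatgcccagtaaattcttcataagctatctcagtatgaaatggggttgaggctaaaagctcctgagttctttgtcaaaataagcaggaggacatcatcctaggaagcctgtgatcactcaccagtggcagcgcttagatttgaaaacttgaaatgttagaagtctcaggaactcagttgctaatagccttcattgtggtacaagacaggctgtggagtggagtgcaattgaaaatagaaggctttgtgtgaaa
Sema3c, chr5:17574566-17574865, + strand: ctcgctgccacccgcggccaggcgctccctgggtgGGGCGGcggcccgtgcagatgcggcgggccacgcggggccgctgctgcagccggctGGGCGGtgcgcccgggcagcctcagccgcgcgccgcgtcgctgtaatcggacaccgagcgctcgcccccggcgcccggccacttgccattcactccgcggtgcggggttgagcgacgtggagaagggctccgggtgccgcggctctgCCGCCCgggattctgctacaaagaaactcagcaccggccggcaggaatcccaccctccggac
Slit3, chr11:35121206-35121505, + strand: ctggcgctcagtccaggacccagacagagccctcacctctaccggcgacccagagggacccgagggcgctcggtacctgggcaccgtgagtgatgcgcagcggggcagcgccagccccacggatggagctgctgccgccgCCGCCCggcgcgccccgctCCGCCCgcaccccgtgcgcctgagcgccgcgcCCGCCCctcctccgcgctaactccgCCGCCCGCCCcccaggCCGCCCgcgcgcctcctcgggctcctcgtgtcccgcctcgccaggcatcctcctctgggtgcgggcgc
Sema6d, chr2:124089719-124090018, + strand: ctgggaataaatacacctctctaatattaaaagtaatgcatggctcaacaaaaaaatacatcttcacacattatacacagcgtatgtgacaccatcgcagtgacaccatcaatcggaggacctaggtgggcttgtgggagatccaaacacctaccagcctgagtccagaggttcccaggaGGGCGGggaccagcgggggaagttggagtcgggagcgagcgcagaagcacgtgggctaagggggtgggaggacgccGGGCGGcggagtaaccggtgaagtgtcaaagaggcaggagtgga
Sema6d, second start, chr2:124653331-124653630, + strand: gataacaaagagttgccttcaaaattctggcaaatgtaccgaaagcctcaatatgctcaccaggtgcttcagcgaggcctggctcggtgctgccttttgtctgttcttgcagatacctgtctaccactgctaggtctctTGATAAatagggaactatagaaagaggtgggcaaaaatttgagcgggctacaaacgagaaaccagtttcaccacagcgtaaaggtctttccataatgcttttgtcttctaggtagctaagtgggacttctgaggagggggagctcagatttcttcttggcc

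The windows of Sema3c (75.7% GC, 42 CpG) and Slit3 (78.3% GC, 41 CpG) hold 3 and 6 GC box cores. The first Sema6d window holds 2, and the second Sema6d window holds none but has 1 TGATAA match, which starts 111 bases before the start. The Sema3a window (41.3% GC, 2 CpG) holds none of the motifs. RefSeq windows matched 59 of the 68 members, 75 windows in all. A GC box core was in 70.7% of them and in 35.9% of all 32544 promoter windows, and a GATA motif in 8.0% of them against 18.5% of all windows. Among the members called lower in Virma cKO 3 of 20 windows held a GATA motif, those of Sema6d, Efna4 and Robo2. A match describes letters and not a bound site.

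The levels were led by a few receptors. Compared per kilobase of exons, as the mean of the 4 groups, Epha2 stood highest at 55.0 CPM per kb, followed by the plexins Plxna1 (37.4) and Plxnb2 (24.0). Epha2 is a receptor kinase of epithelial and early embryonic cells, Plxna1 a receptor of class 3 and class 6 semaphorins, and Plxnb2 a receptor of class 4 semaphorins. The highest ligands were Efna4 (16.1 CPM per kb), Efnb1 (12.4) and Sema4b (12.4). Nrp2 led the neuropilins at 1.38, Slit3 the Slits at 2.40, Robo4 the Robos at 1.43, Ntn1 the netrins at 1.94 and Unc5b the Unc5 receptors at 7.30 CPM per kb. Plxna1 and Plxnb2 stayed within a narrow range over the 8 libraries, at 291 to 370 and 157 to 209 CPM.

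**Figure D1:**
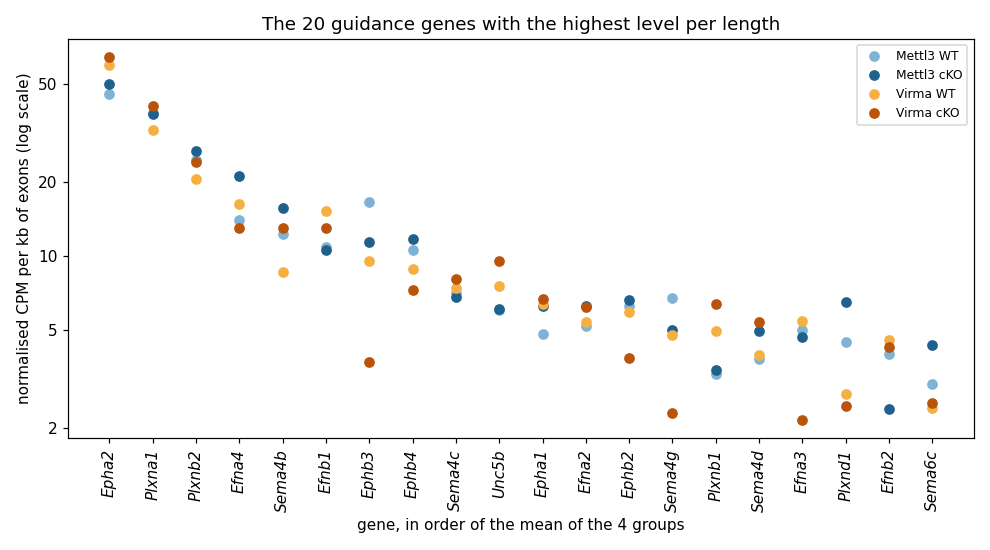
Normalised CPM per kilobase of exons (log axis) of the 20 members with the highest level per length, 1 point per group mean in the 4 groups. Epha2, Plxna1 and Plxnb2 lead in all groups, while the Virma cKO points of Ephb3, Ephb2, Sema4g and Efna3 lie below those of the other 3 groups.

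The first comparison asks how guidance genes differ between the libraries labelled Mettl3 cKO and Mettl3 WT. Of the 65 members tested 23 were higher and 12 lower, where 27.1% of all genes tested were called higher and 28.0% lower. The members' median log2 fold change was 0.14, against 0.01 over all genes. By at least 2-fold 9 members rose and 1, Sema6d, fell, where 4.39% of all genes tested rose and 1.63% fell by as much. Of these 9 risers, Epha5, Unc5c, Ntn5, Sema3g and Sema3a had at most 29 counts in any library of the Mettl3 line. Among members whose average log2 CPM was 0 or more, Sema3a, Sema3c and Slit3 rose most. Sema3a reached that average mainly through the Virma line, with group means of 2.65 and 7.96 CPM against 0.329 and 1.39 CPM in the Mettl3 line. Without Mettl3 cKO replicate 2 the members called higher were 15, and with DESeq2 those called lower were 7.

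Sema3a, a secreted semaphorin that signals through Nrp1 and A-type plexins, stood at 0.18 and 0.479 CPM in Mettl3 WT and 1.32 and 1.45 CPM in Mettl3 cKO. It rose by 2.05 ± 0.45 (edgeR, adjusted p = 0.000491). The level was low, with 3 and 8 counts in the Mettl3 WT libraries, and the groups did not overlap. The rise was 2.90 without replicate 2 of Mettl3 WT and 1.52 without replicate 1. Sema3c, known for its part in heart outflow tract formation, went from 1.98 CPM in both Mettl3 WT libraries to 4.33 and 5.14 CPM, a rise of 1.26 ± 0.21 (edgeR, adjusted p = 2.35e-05). Sema3g was near 1 CPM, at 0.899 and 0.659 against 1.74 and 1.69, and its rise of 1.13 ± 0.39 (edgeR, adjusted p = 0.0167) was not called without replicate 1 or 2 of Mettl3 cKO or with DESeq2. Sema3e, a ligand of Plxnd1, was called lower (−0.30 ± 0.12, edgeR, adjusted p = 0.038), a call that was lost in 11 of 18 alternatives. In all, 3 of the 7 class 3 semaphorins were higher and 1 lower, where 27.1% of all genes tested were higher and 28.0% lower.

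Both neuropilins rose. Nrp2 stood at 7.79 and 6.95 CPM in Mettl3 WT and 17.4 and 15.1 CPM in Mettl3 cKO (1.14 ± 0.13; edgeR, adjusted p = 4.96e-08). Nrp1 stood at 1.38 and 2.99 CPM against 3.73 and 4.54 CPM, a rise of 0.92 ± 0.26 (edgeR, adjusted p = 0.00437). The Mettl3 WT libraries were far apart for Nrp1: without replicate 1 of Mettl3 WT the value was 0.46 and was not called, without replicate 2 it was 1.58, and it was not called without replicate 2 of Mettl3 cKO (0.77). Among plexins, Plxnd1, a receptor of vessels, rose from 32.9 and 32.2 to 47.3 and 47.4 CPM (0.54 ± 0.07; edgeR, adjusted p = 5.71e-07). Plxnc1, the receptor of Sema7a, fell by 0.61 ± 0.19, from 5.22 and 7.24 to 3.91 and 4.24 CPM, and was not called when Mettl3 WT replicate 2 (−0.36) or Mettl3 cKO replicate 1 (−0.56) was left out, or with DESeq2. Plxna1, the most abundant plexin, did not pass the test (−0.02 ± 0.03).

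Transmembrane semaphorins went both ways. Sema6d, a ligand of Plxna1, had 16.2 and 22.5 CPM in Mettl3 WT and 3.73 and 5.81 CPM in Mettl3 cKO. It fell by 2.02 ± 0.18 (edgeR, adjusted p = 9.62e-10), the deepest fall among the members, and the libraries did not overlap. Its relative Sema6c rose by 0.53 ± 0.10, from 18.3 and 17.4 to 25.1 and 26.4 CPM. Of class 4, Sema4b (0.34 ± 0.06) and Sema4d (0.38 ± 0.07), a ligand of Plxnb1, rose, and Sema4g (−0.44 ± 0.06) fell from 59.9 and 57.0 to 42.5 and 43.7 CPM. Of class 5, Sema5b rose by 0.66 ± 0.17 and Sema5a fell by 0.53 ± 0.20; Sema5a was not called when Mettl3 WT replicate 1 (−0.21) or Mettl3 cKO replicate 1 (−0.36) was left out, with DESeq2 and with the length and GC trend removed.

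Of the secreted Slits, Slit3 rose from 3.96 and 3.65 to 8.30 and 9.74 CPM (1.24 ± 0.16; edgeR, adjusted p = 4.18e-07), while Slit1 and Slit2 were not called (−0.34 ± 0.30 and −0.07 ± 0.23). The Robo receptors split. Robo4, known from endothelium, rose from 2.88 and 3.47 to 6.32 and 6.54 CPM (1.01 ± 0.19; edgeR, adjusted p = 9.13e-05). Robo1, a widely expressed Slit receptor, fell from 21.5 and 26.6 to 14.5 and 15.7 CPM (−0.67 ± 0.11; edgeR, adjusted p = 8.39e-06), and Robo2 fell by 0.81 ± 0.27, a call lost without replicate 2 of either Mettl3 group, with DESeq2 and with the length and GC trend removed. The netrin Ntn1 rose from 6.29 and 5.27 to 9.98 and 12.2 CPM (0.94 ± 0.15; edgeR, adjusted p = 1.03e-05). Ntn5 was called higher (1.05 ± 0.38) at 0.600 to 1.75 CPM in these libraries, a call lost in 9 of 18 alternatives, and 23.4% of its exon length overlaps Sec1 on the other strand.

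Among ephrins, Efnb2, a B-type ephrin of arteries and boundaries, fell from 26.1 and 28.6 to 17 and 15.7 CPM (−0.74 ± 0.09; edgeR, adjusted p = 2.08e-07). Efnb3 (0.64 ± 0.15) and Efna4 rose, Efna4 from 24.2 and 20.7 to 32.7 and 34.6 CPM (0.59 ± 0.09). Efna1, a ligand of Epha2, fell by 0.63 ± 0.23, a call lost in 6 of 18 alternatives. Of the receptors, Epha4, which binds ephrins of both types, fell from 33.9 and 34.4 to 18.8 and 16.9 CPM (−0.94 ± 0.09; edgeR, adjusted p = 2.34e-09). Epha7 fell by 0.74 ± 0.17 and Ephb3 by 0.53 ± 0.05, from 110 and 109 to 73.6 and 77.8 CPM. Epha2 was called higher by 0.14 ± 0.03 and Epha1 by 0.37 ± 0.09. The Epha2 call was lost without replicate 2 of Mettl3 cKO (0.10) and with the length and GC trend removed (0.01).

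A few called members rested on very few reads. Epha5 had no count in Mettl3 WT and 11 in the Mettl3 cKO pair, at least 3.69-fold higher when set against a floor of 3 counts over the group. Unc5c had 3 counts against 14, a ratio of 4.70 with a 95% counting interval of 1.31 to 25.5 (exact binomial), and its call was lost in 8 of 18 alternatives. With more reads, Sema7a, which uses integrins and Plxnc1, rose by 0.72 ± 0.21 at 2.58 to 5.59 CPM (43 to 93 counts). Sema6b rose by 0.41 ± 0.16 at 6.59 to 11.3 CPM (110 to 187 counts). The Sema7a call was lost in 2 and the Sema6b call in 6 of 18 alternatives.

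Virma cKO was then compared with Virma WT. Here 26 of 65 members were higher and 16 lower, where 26.2% of all genes tested were higher and 26.1% lower. The members' median was 0.15, against 0.02 over all genes. By at least 2-fold 12 members rose and 11 fell, where 5.38% of all genes tested rose and 3.61% fell by as much. Among these 12, Epha5, Ephb1, Plxna4, Unc5c and Unc5d had only 5 to 11 counts per Virma WT library and 19 to 33 per Virma cKO library. Epha5 and Unc5d had at most 9 counts in any library outside Virma cKO. Unc5c had at most 8 counts per library in the Mettl3 line and 10 and 11 in Virma WT. Of these libraries only Virma WT replicate 2 reached the filter's minimum for Unc5c. Epha5, Unc5c and Unc5d therefore passed the filter through the group where they were high, which limits the counts of 12 and 26. The Virma WT pair decides part of the count: without its replicate 1 the members called higher were 16, and with DESeq2 they were 15. With scaling by total count alone the median of all genes moved from 0.02 to 0.15, and the share of all calls that were higher from 50% to 65.4%.

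Among members whose average log2 CPM was 0 or more, the largest rises were those of Sema3a, Sema7a and Sema3c. Sema3a went from 2.69 and 2.62 CPM in Virma WT to 8.45 and 7.48 CPM in Virma cKO (1.59 ± 0.26; edgeR, adjusted p = 1.56e-05). Sema3c went from 9.85 and 8.65 to 24.5 and 24.1 CPM (1.39 ± 0.15; edgeR, adjusted p = 1.94e-08). Sema3f, a ligand of Nrp2, was called higher by 0.33 ± 0.14, a call lost in 6 of 18 alternatives, among them the one without replicate 1 of Virma WT (0.19). Sema3b, Sema3d, Sema3e and Sema3g were not called. The neuropilins rose again, Nrp1 from 6.09 and 6.68 to 14.1 and 12.6 CPM (1.06 ± 0.21; edgeR, adjusted p = 0.000149) and Nrp2 from 16.2 and 14.3 to 27.2 and 26.1 CPM (0.80 ± 0.12; edgeR, adjusted p = 6.82e-06).

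The membrane semaphorins divided in the Virma line as well. Sema6a rose from 12.1 and 10.9 to 27.5 and 26.0 CPM (1.21 ± 0.14; edgeR, adjusted p = 7.69e-08), while Sema6d fell from 8.00 and 9.13 to 1.87 and 1.76 CPM (−2.23 ± 0.31; edgeR, adjusted p = 1.82e-06). Sema7a rose from 3.82 and 2.98 to 8.93 and 10.0 CPM (1.47 ± 0.23; edgeR, adjusted p = 6.73e-06), and its receptor Plxnc1 fell from 7.46 and 6.68 to 3.26 and 3.04 CPM (−1.17 ± 0.25; edgeR, adjusted p = 0.000341). This ligand and its receptor thus went in opposite directions. In class 4, Sema4f (0.81 ± 0.18), Sema4b (0.61 ± 0.07) and Sema4d (0.45 ± 0.09) rose, and Sema4g fell from 42.1 and 40.3 to 20.3 and 19.3 CPM (−1.06 ± 0.10). Plxnb1, the receptor of Sema4d, rose by 0.36 ± 0.09, Plxna1 by 0.32 ± 0.04 and Plxnb2 by 0.22 ± 0.04.

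**Figure D2:**
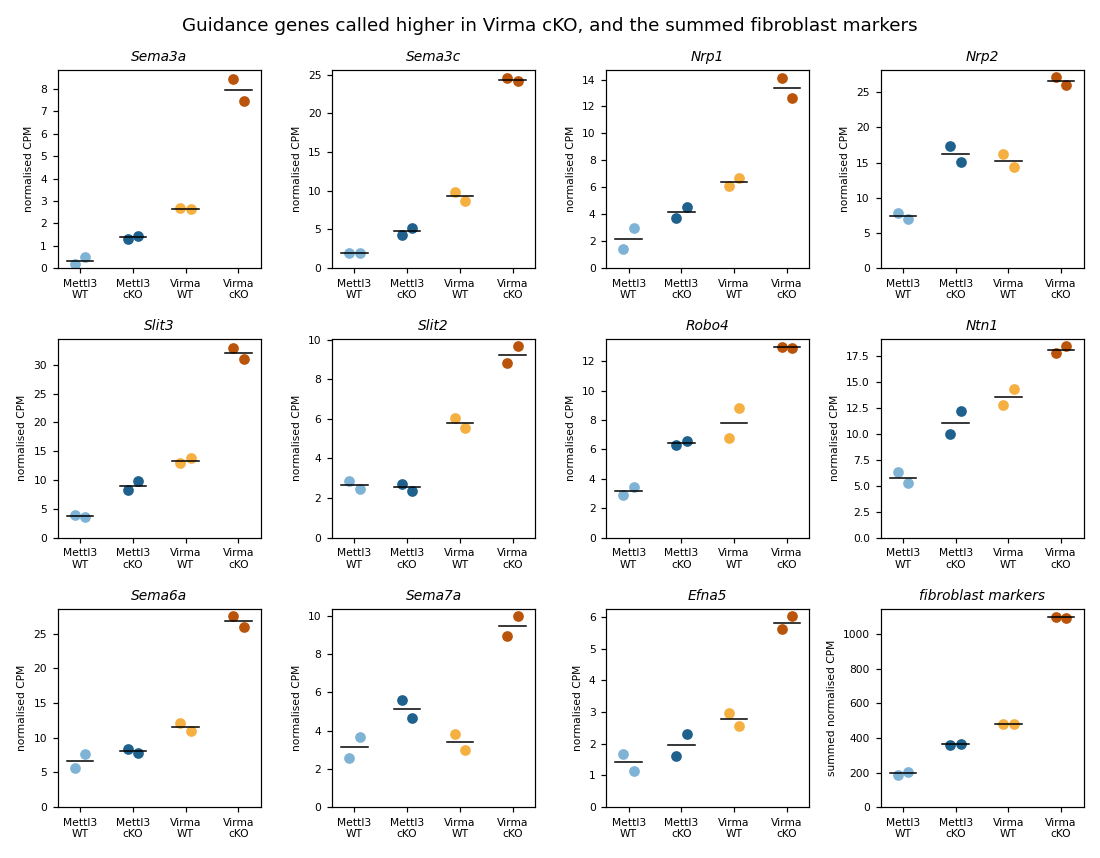
Normalised CPM of 11 members called higher in Virma cKO and, in the last panel, the summed level of 15 fibroblast markers; each point is 1 library and each bar the mean of its pair, with axes from 0. The Virma cKO points are the highest in every panel, and the Sema3a, Sema3c, Nrp1 and Slit3 panels order the groups as the fibroblast panel does.

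Of the 12 Eph receptors tested 4 fell and 3 rose, and of the 8 ephrins 4 fell and 1 rose. Over all genes tested 26.1% were called lower and 26.2% higher, and the Eph receptor counts are near these shares. Ephb3 fell from 61.9 and 64.7 to 23.8 and 25.2 CPM (−1.37 ± 0.08; edgeR, adjusted p = 9.61e-13), Ephb2 from 74.4 and 74.9 to 49.0 and 47.3 CPM (−0.64 ± 0.07; edgeR, adjusted p = 3.80e-08), and Ephb4 by 0.28 ± 0.08. The Ephb4 call was lost with scaling by total count (−0.16) and without replicate 2 of Virma WT. Of the 5 EphB receptors, 3 fell, 1 rose and 1 was not called. The riser, Ephb1, stood at 0.537 and 0.656 against 1.75 and 1.88 CPM, and its call was lost without either Virma WT library. Epha4 fell from 25.3 and 26.5 to 10.1 and 12.3 CPM (−1.21 ± 0.12; edgeR, adjusted p = 1.22e-08).

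Of the A-type ephrins, Efna3 fell from 12.4 and 14.1 to 4.35 and 6.08 CPM (−1.35 ± 0.17; edgeR, adjusted p = 5.54e-07). Efna1 fell by 1.01 ± 0.35 from 2.8 and 2.56 to 1.63 and 1.03 CPM, with its call lost when either Virma WT library, or replicate 2 of Virma cKO, was left out, and with DESeq2. Efna4 was called lower by a log2 fold change of −0.32 ± 0.11, which did not pass with scaling by total count (−0.19), with DESeq2 or without either Virma WT library. Efna5 rose from 2.98 and 2.56 to 5.61 and 6.02 CPM (1.06 ± 0.27; edgeR, adjusted p = 0.0021), and did not pass with DESeq2 (adjusted p = 0.0661). Of the B-type ephrins, Efnb1 was called lower (−0.22 ± 0.08) and lost that call with scaling by total count (−0.10), with DESeq2 and without either Virma WT library, and Efnb2 was not called (−0.11 ± 0.10).

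Slit3 rose from 12.9 and 13.8 to 33.0 and 31.1 CPM (1.26 ± 0.12; edgeR, adjusted p = 6.06e-09) and Slit2 from 6.03 and 5.55 to 8.81 and 9.67 CPM (0.67 ± 0.20), whereas Slit1 fell from 3.52 and 3.64 to 1.27 and 1.64 CPM (−1.3 ± 0.34; edgeR, adjusted p = 0.00254). The Slit2 call was lost with DESeq2 and without replicate 2 of Virma WT. Robo4 rose by 0.73 ± 0.18, a call lost without replicate 1 of Virma WT (0.55). Robo1 fell by 0.48 ± 0.12 and Robo2 by 1.40 ± 0.32, the last from 4.77 and 4.53 to 1.75 and 1.76 CPM. Each Robo receptor named here had the same direction as in the Mettl3 line.

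The netrins and their receptors also split. Ntn3 fell from 7.40 and 7.34 to 1.33 and 1.76 CPM (−2.22 ± 0.29; edgeR, adjusted p = 5.33e-07), as deep a fall as that of Sema6d. Ntn1 was called higher by 0.42 ± 0.14, a call lost without replicate 1 of Virma WT (0.34) and with DESeq2. Of the Unc5 receptors, Unc5b, which carries most of the RNA of this family, rose from 49.5 and 45.2 to 58.8 and 60.3 CPM (0.33 ± 0.08). Unc5c and Unc5d were called higher by 1.52 ± 0.53 and 1.72 ± 0.53 at levels from 0.477 to 1.99 CPM, and both calls were lost when either Virma WT library was left out. Unc5a was called lower (−1.26 ± 0.44), from 1.91 and 2.45 to 1.03 and 0.790 CPM, and this was lost without replicate 2 of Virma WT and with DESeq2.

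**Figure D3:**
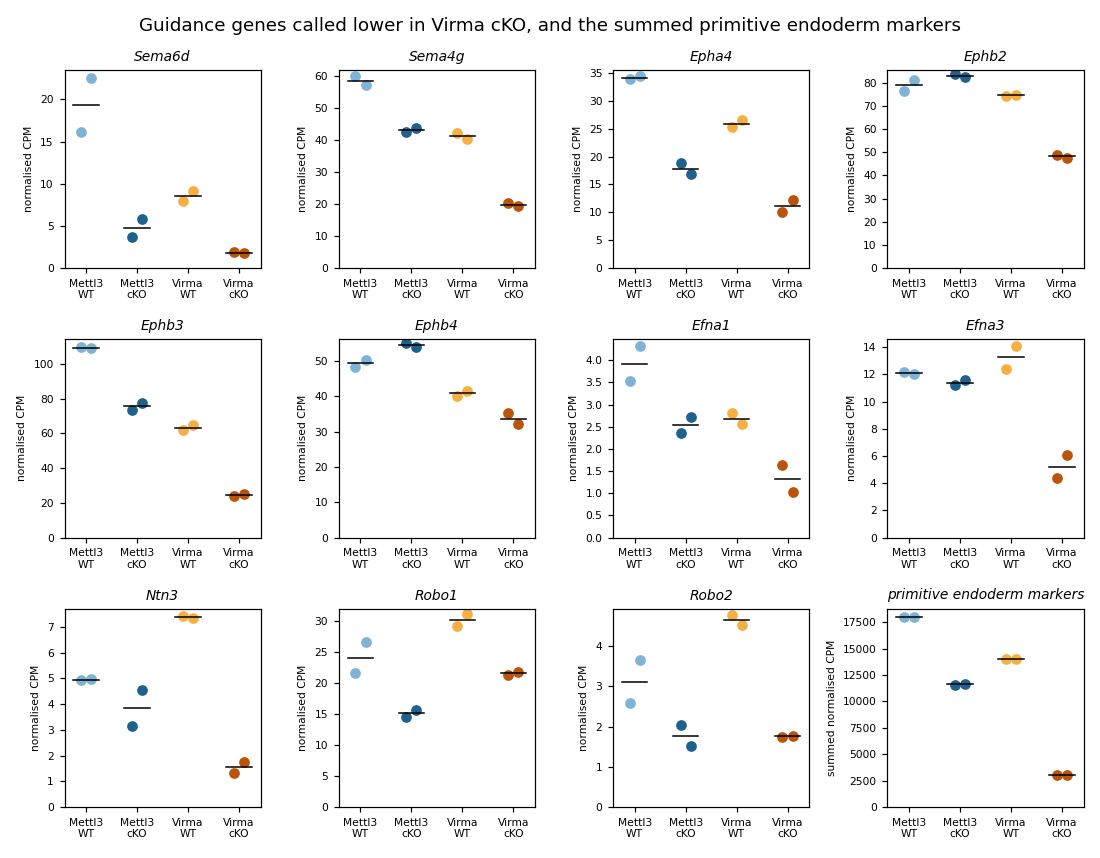
Normalised CPM of 11 members called lower in Virma cKO and, in the last panel, the summed level of 18 primitive endoderm markers; each point is 1 library and each bar the mean of its pair, with axes from 0. Sema6d, Sema4g, Epha4 and Ephb3 are highest in Mettl3 WT and lowest in Virma cKO, as is the marker sum, whereas Ntn3 and Robo2 are highest in Virma WT.

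Both lines shared part of these calls. Higher in both were 15 members, 65.2% of those higher in the Mettl3 line and 57.7% of those higher in the Virma line; over all genes the shares were 50.5% and 52.3%. They include the semaphorins Sema3a, Sema3c, Sema4b, Sema4d, Sema6b and Sema7a, both neuropilins, Slit3, Robo4, Ntn1, Epha2 and Plxnb2. The others, Epha5 and Unc5c, had 0 and 3 counts over the Mettl3 WT pair and passed the filter through Virma cKO, which limits these shares. Lower in both were 8 members, 66.7% and 50% of the respective lists, against 50.9% and 54.5% over all genes: Efna1, Epha4, Ephb3, Plxnc1, Robo1, Robo2, Sema4g and Sema6d. Efna4 was the 1 member called in opposite directions, higher in Mettl3 cKO and lower in Virma cKO, and its Virma call was lost in 5 of 18 alternatives. Over all genes, such opposite calls made up 13.4% of those higher in the Mettl3 line and 13.9% of those lower in the Virma line. Of the members higher in both, Epha2 lost its Virma call (0.10 ± 0.04) in 7 of 18 alternatives and Plxnb2 its Mettl3 call (0.12 ± 0.04) in 4. Leaving aside the stricter p and the 2-fold minimum, only Nrp2, Sema3a, Sema3c, Sema4b, Sema4d and Slit3 of the 15 kept both calls in every alternative. Of the 8 lower in both, Epha4, Ephb3, Robo1, Sema4g and Sema6d did so.

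**Figure D4:**
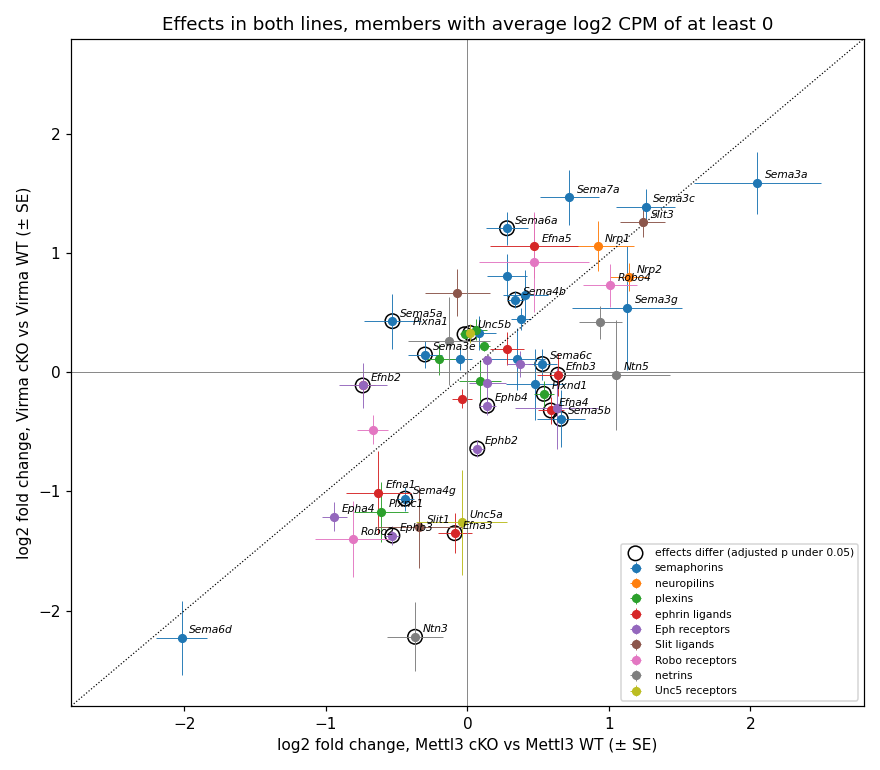
Log2 fold changes in the Mettl3 line (x axis) and the Virma line (y axis) with SE bars for the 58 members whose average log2 CPM was 0 or more, coloured by family; black circles mark the 18 members whose 2 effects differ at an adjusted p under 0.05, and the dotted line marks equal effects. Sema6d lies at the lower left near the line, Sema3a, Sema3c, Slit3 and the neuropilins at the upper right, and Ntn3, Efna3 and Ephb2 fall away from the line.

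The difference of both effects was tested next, as the Virma effect minus the Mettl3 effect. Of the 65 members 7 were called higher and 11 lower, where 17.9% of all genes tested were higher and 21.2% lower. By at least 2-fold 0 were higher and 3 lower, against 1.88% and 2.75% of all genes. The deepest differences were those of Ntn3 (−1.86 ± 0.36; edgeR, adjusted p = 0.00022) and Efna3 (−1.25 ± 0.21; edgeR, adjusted p = 4.89e-05), neither of which was called in the Mettl3 line (−0.37 ± 0.20 and −0.09 ± 0.12). All 3 of the abundant EphB receptors had a lower effect in the Virma line: Ephb3 by a difference of −0.84 ± 0.10, Ephb2 of −0.71 ± 0.09 and Ephb4 of −0.43 ± 0.10. On the higher side, Sema5a (0.96 ± 0.31), Sema6a (0.93 ± 0.21) and Efnb2 (0.63 ± 0.13) had the largest differences among calls. The Sema5a call was lost in 4 of 17 alternatives, with 0.52 when the length and GC trend was removed and 0.79 without Mettl3 cKO replicate 1. For Sema6d, Sema3a, Sema3c, Slit3, Nrp1 and Nrp2 the difference was not called, at −0.22 ± 0.40, −0.46 ± 0.54, 0.14 ± 0.27, 0.01 ± 0.22, 0.14 ± 0.34 and −0.34 ± 0.18. The count of 7 was sensitive to the settings: it was 13 with 8 separate libraries, with or without the replicate block, 14 with scaling by total count and 3 with DESeq2. Leaving out 1 library gave 14 without Mettl3 WT replicate 1, 11 without Mettl3 WT replicate 2, 3 without Mettl3 cKO replicate 1, 4 without Virma WT replicate 2 and 13 without Virma cKO replicate 1. With scaling by total count the share of all calls that were higher went from 45.8% to 60.3%.

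The WT libraries of the lines differed from each other in guidance genes too. Between Virma WT and Mettl3 WT, 25 of 65 members were higher in Virma WT and 13 lower, where 25.4% of all genes tested were higher and 22.2% lower. By at least 2-fold 12 were higher and 1 lower, against 3.87% and 2.28% of all genes. Epha5 and Unc5c, which are among these 12, had 0 and 3 counts over the Mettl3 WT pair. The members' median was 0.18, against 0.03 over all genes. Each of these groups is also the control of a knockout comparison, so the values below are set side by side and not counted as agreement. Sema3a was higher in Virma WT by 2.98 ± 0.40, Sema3c by 2.22 ± 0.19, Slit3 by 1.81 ± 0.15, Nrp1 by 1.54 ± 0.24, Nrp2 by 1.05 ± 0.13, Robo4 by 1.3 ± 0.19, Ntn1 by 1.23 ± 0.14 and Sema3e by 1.20 ± 0.10. Without replicate 2 of Mettl3 WT, Sema3a was higher by 3.83 and Nrp1 by 2.20. Sema3d had 3 counts, all in replicate 1, in the Mettl3 WT pair and 42 in the Virma WT pair, a ratio of 13.9 with a 95% counting interval of 4.46 to 70.3. Sema6d was lower in Virma WT by a log2 fold change of −1.17 ± 0.16, Ephb6, an Eph receptor without kinase activity, by −0.88 ± 0.15, Ephb3 by −0.79 ± 0.05, Plxnd1 by −0.70 ± 0.08 and Sema4g by −0.51 ± 0.06.

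Over the 4 groups, 18 of the 68 members had group means that ran from Mettl3 WT over Mettl3 cKO and Virma WT up to Virma cKO, which is also the order of the summed fibroblast markers. Among the members tested 26.2% had this order, against 8.61% of all genes tested, and 13.8% against 3.65% also had no overlap between libraries of neighbouring groups. The order was picked because it was the most frequent among these same members, so the higher shares follow in part from that choice. They are no test of the order or of its match to the fibroblast markers. Sema3a, Sema3c, Slit3, Nrp1, Robo4 and Ntn1 are among them, and in each of these 6 genes the libraries of neighbouring groups did not overlap. The step between Mettl3 cKO and Virma WT was not tested. Sema6d ran Virma cKO, Mettl3 cKO, Virma WT and Mettl3 WT from low to high, also without overlap. Nrp2 had Mettl3 cKO and Virma WT at like levels, with libraries at 15.1 and 17.4 against 14.3 and 16.2 CPM.

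**Figure D5:**
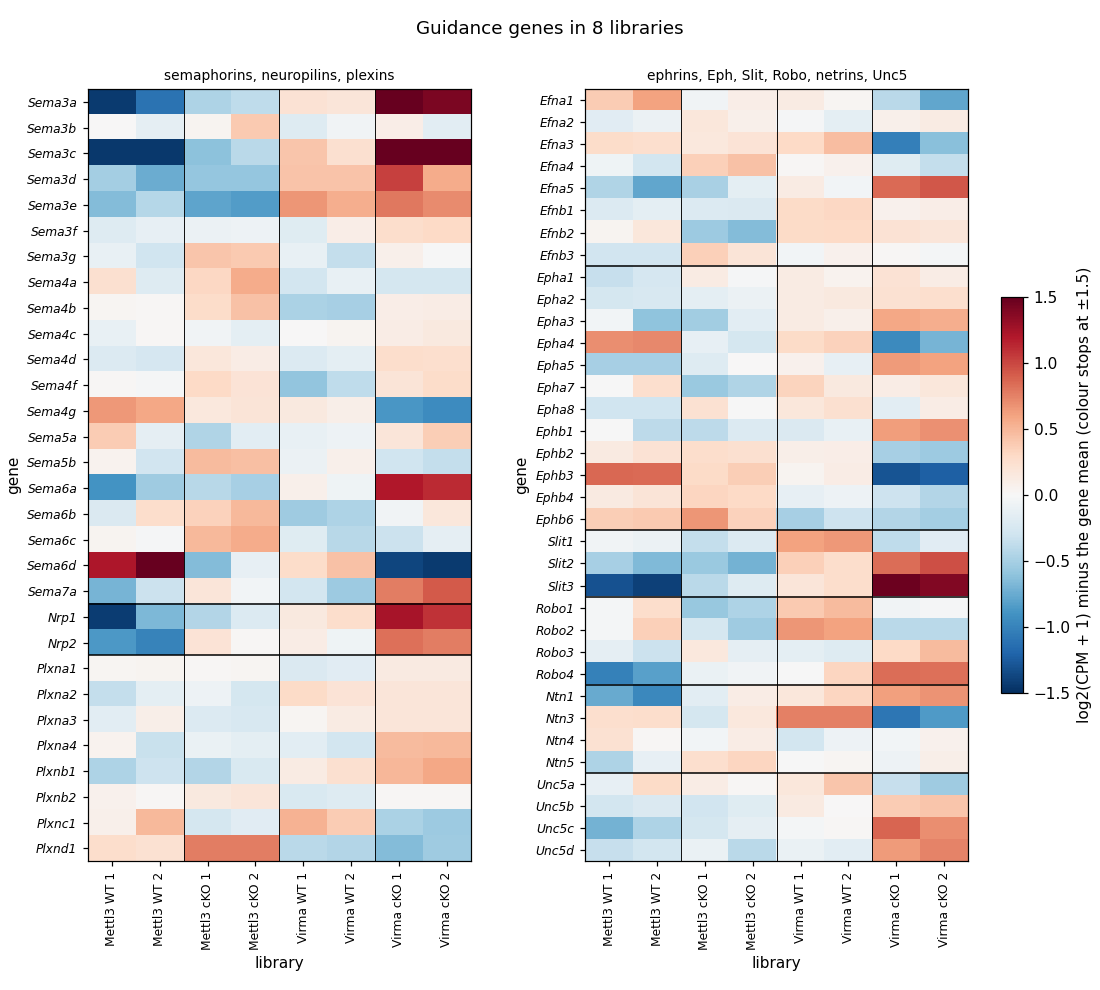
Log2(CPM + 1) minus the gene's mean for the 65 members tested (rows, by family) in the 8 libraries (columns, by group); colours stop at ±1.5. Sema3a, Sema3c, Nrp1 and Slit3 run from blue in Mettl3 WT to red in Virma cKO, and Sema6d, Sema4g, Epha4 and Ephb3 run the other way between those groups.

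Markers of several cell types differed between the groups. Over all genes tested, 27.1% were higher and 28.0% lower in Mettl3 cKO, and 26.2% higher and 26.1% lower in Virma cKO. Of the fibroblast markers 12 of 14 tested were higher in Mettl3 cKO and 14 of 14 in Virma cKO, with Col1a1 at 59.5, 130, 169 and 414 CPM as group means, in the order Mettl3 WT and cKO, Virma WT and cKO. None of the 15 was at 0 in all libraries, but S100a4, which was not tested, was at 0 in all except Virma cKO replicate 2 (0.0608 CPM). The part of the fibroblast markers in the rises of Sema3a, Sema3c, Slit3 and the neuropilins was not tested. Of the primitive endoderm markers 16 of 18 were lower in Mettl3 cKO and 18 of 18 in Virma cKO, and their part in the falls of Sema6d, Sema4g, Epha4 and Ephb3 was not tested. Neural markers summed to 148 and 152 CPM (Mettl3 WT), 122 in each library (Mettl3 cKO), 178 and 175 (Virma WT) and 114 and 117 (Virma cKO), with Stmn2 at 80.5, 56.9, 89.6 and 24.2 CPM and Nes at 31.9, 34.3, 36.8 and 43 CPM as group means. Endothelial and blood markers summed to 203 and 199, 202 and 205, 149 and 151, and 79.1 and 75.5 CPM in the same order, while Robo4 and Nrp1 rose in Virma cKO. Of the 10 tested, 6 were higher and 2 lower in Mettl3 cKO (median 0.52), where Robo4 and Plxnd1 rose, and 1 was higher and 7 lower in Virma cKO (median −1.07). The highest of this list had lower group means in Mettl3 cKO than in Mettl3 WT. Pecam1 stood at 75.4, 68.5, 52.1 and 38.3 CPM and Runx1 at 66.1, 40.1, 49.8 and 10.5 CPM. Sox18, at 5.0, 13.2, 3.16 and 2.58 CPM, and Etv2, at 15.7, 27, 6.71 and 3.3 CPM as group means, had higher ones there. No neural or endothelial marker was at 0 in all libraries, though Dcx had at most 0.423 CPM and Emcn at most 0.303 CPM. The part of either list in the results was not tested. Embryonic stem cell markers summed to 2329 to 2443 CPM in the first 3 groups and 1625 and 1637 in Virma cKO. Of the 13 tested, 3 were higher and 8 lower in Virma cKO (median −0.16). Most of the lower sum came from Dppa5a (536 and 141 CPM) and Pou5f1 (567 and 311 CPM), as group means in Virma WT and Virma cKO. Esrrb had 249 and 306 CPM in the same order. Trophectoderm markers summed to 950 to 1012 CPM and then 1251 and 1258, and mesoderm markers to 33.3 to 61.2 CPM in all libraries. Most of the mesoderm sum was Eomes, which is in both lists, with group means of 29.3, 46.1, 47.9 and 38.0 CPM. The trophectoderm sum was carried by the keratins Krt8 and Krt18, with group means of 385 and 320 CPM in Virma WT and 537 and 465 CPM in Virma cKO. Of the 11 trophectoderm markers tested, 4 were higher and 3 lower in Virma cKO (median 0.05).

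Genes that work with these families were counted in the same way. The shares of all genes tested were 27.1% higher and 28.0% lower in Mettl3 cKO, and 26.2% higher and 26.1% lower in Virma cKO. Of 34 listed receptors and partners outside the families 30 were tested: 10 were higher and 6 lower in Mettl3 cKO (median 0.03) and 12 higher and 5 lower in Virma cKO (median 0.37). Flrt3, a membrane ligand of Unc5 receptors, fell by 2.03 ± 0.08 in Virma cKO. Itga1, a subunit of an integrin receptor of Sema7a, rose by 0.74 ± 0.21 in Mettl3 cKO and 1.51 ± 0.18 in Virma cKO. Kdr, a VEGF receptor that pairs with neuropilins, rose by 0.94 ± 0.14 in Mettl3 cKO and fell by 1.10 ± 0.21 in Virma cKO, and these effects differed (−2.04 ± 0.25; edgeR, adjusted p = 6.13e-07). Sdc1, a heparan sulfate proteoglycan of the cell surface, rose by 0.95 ± 0.06 in Mettl3 cKO.

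Of 62 intracellular effectors, all tested, 12 were higher and 27 lower in Mettl3 cKO (median −0.10) and 21 higher and 19 lower in Virma cKO (median 0.01). The shares of all genes tested were 27.1% higher and 28.0% lower, and 26.2% higher and 26.1% lower, in the same order. Nck1, an adaptor between receptors and the actin machinery, rose by 0.95 ± 0.08 in Mettl3 cKO and 1.3 ± 0.08 in Virma cKO. Bcar1, an adaptor of focal adhesions, rose by 0.89 ± 0.04 and 0.84 ± 0.05 in the same order. Srgap3, a GTPase activator of the Slit and Robo pathway, fell by 1.33 ± 0.14 in Mettl3 cKO, and Dpysl2, a mediator of Sema3a signalling, fell there by 0.86 ± 0.14. Their group means were also lower in Virma cKO than in Virma WT, at 5.06 against 7.79 CPM (Srgap3) and 3.97 against 5.94 CPM (Dpysl2). In Virma cKO, Mical1, an enzyme that acts on actin below plexins, fell by 1.29 ± 0.17 and Crmp1, a relative of Dpysl2, by 0.85 ± 0.14. In Mettl3 WT and Mettl3 cKO, Mical1 had group means of 17.4 and 14.1 CPM and Crmp1 of 8.42 and 9.5 CPM.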

How the data were processed

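RNA of 8 libraries in 4 groups, set by the titles in the labels, was analysed as the raw counts per gene symbol that the authors deposited. Per the labels' protocols RNA came from TRIzol extraction and the total RNA libraries from a SMARTer stranded kit and a VAHTS kit; the kit of each library is not named. The submitters' processing notes name the build mm39, the aligner STAR (2.7.11b) and Subread, beside FastQC (0.12.1), DESeq2 and Trim Galore. The gene annotation, the strand setting and how multi-mapping reads were counted are not stated there, so counts of overlapping genes are uncertain: exons of 15 members overlap a gene on the other strand, and for 4 of them (Epha1, Ephb4, Ntn5 and Unc5a) that gene is in the table. Ntn3 shares exon bases with Tbc1d24 on the same strand.

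The members and lists were chosen with earlier results of these data known. Counts were fitted in R 4.3.3 with edgeR 4.0.16 (TMM factors, filterByExpr over the 4 groups, robust quasi-likelihood test, 14229 genes, 3 residual degrees of freedom), with the Virma cKO pair as 1 sample, its rounded mean, assumed to vary like the other groups. Alternatives included DESeq2 1.42.0, other scalings and filters, 8 separate libraries, a replicate block and leaving out each library. Exon lengths came from GENCODE M21 on GRCm38 and matched all 68 members. Members described in full are up to 8 called rises and 8 falls per knockout comparison, and up to 5 per direction in the others, with average log2 CPM no lower than 0, and the highest of each family per length. Up to 6 genes of each other list were eligible. Members named beyond this rule, and the panels of the plots, were chosen after their values were seen. The fit was also run on simulated counts in which all genes had the same spread (edgeR dispersion 0.000673). It recovered 76% of 1.3-fold changes in the Mettl3 comparison and 60% in the Virma comparison, and 90% of 1.5-fold changes in both. Of its calls 5.26% and 2.84% were false in the same order. A spread that differs between genes was not simulated, so these shares may not hold for the real counts.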

Additional observations from a re-analysis of the deposited data

Results flagged for a closer look

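In 18 members the effect in the Virma line differed from that in the Mettl3 line by edgeR's test of the difference (Benjamini-Hochberg adjusted p under 0.05). Values are the Virma effect minus the Mettl3 effect in log2. The effect was lower in the Virma line for Ntn3 (−1.86), Efna3 (−1.25), Sema5b (−1.06), Efna4 (−0.91), Ephb3 (−0.84), Plxnd1 (−0.72), Ephb2 (−0.71), Efnb3 (−0.66), Sema4g (−0.62), Sema6c (−0.46) and Ephb4 (−0.43). It was higher in the Virma line for Sema4b (0.26), Unc5b (0.31), Plxna1 (0.33), Sema3e (0.45), Efnb2 (0.63), Sema6a (0.93) and Sema5a (0.96). With all alternatives except the stricter p and the 2-fold minimum, 8 of the 11 lower and 3 of the 7 higher differences kept their call: Efna3, Efna4, Ephb2, Ephb3, Ephb4, Ntn3, Plxnd1 and Sema4g, and Efnb2, Plxna1 and Sema6a.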

How the results depend on the processing

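Leaving aside the stricter p and the 2-fold minimum, every alternative run kept the call of 14 of 23 members higher and 7 of 12 lower in Mettl3 cKO, 14 of 26 and 11 of 16 in Virma cKO, and 17 of 25 and 10 of 13 in Virma WT against Mettl3 WT. With DESeq2, 7 members were lower in Mettl3 cKO, 15 higher in Virma cKO and 3 higher in the difference of effects, and 3593 genes were called in that difference and 4493 between the WT groups, against 5569 and 6773. The members called higher in the difference were 13 with 8 separate libraries, 14 with scaling by total count and 3 at an adjusted p of 0.01. With the replicate block they were 13, also with the length and GC trend removed, and the block moved no other count by over 1.5 times; the replicate numbers were not taken to pair libraries, as correlations of same-numbered deviations ran from −0.01 to 0.16. With at least 2-fold the genes called were 856, 1279, 660 and 875 in the Mettl3, Virma, difference and WT comparisons, and the members higher and lower were 9 and 1, 12 and 11, 0 and 3, and 12 and 1. Leaving out 1 library gave 15 to 26 members higher and 8 to 12 lower in Mettl3 cKO, 16 to 28 and 11 to 16 in Virma cKO, 3 to 14 and 9 to 15 in the difference, and 19 to 27 and 12 to 14 between WT groups. Epha3, at under 1 CPM in the Mettl3 line, ran from −1.87 to 4.86 there when 1 library was left out, against −0.18, and turned to 4.86 without Mettl3 WT replicate 1, which leaves Mettl3 WT at no count. The Epha2 difference turned from −0.04 to 0.10 with the length and GC trend removed and the replicate block; the cause was not tested. Members near 1 CPM, such as Sema3g, Unc5c and Epha5, are limited by their few reads.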
